A study of Macaca mulatta with 13 samples.

Results

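Platelet genes were described in blood mononuclear cells of rhesus macaques at 4 months of age. The members were 10 gene symbols known from platelets, PF4, PPBP, TREML1, ITGA2B, ITGB3, GP9, TUBB1, GNG11, GP1BB and SPARC. Every probe set that the platform annotation pairs with exactly 1 of these symbols was taken. This gave 19 probe sets for 8 of the 10 genes, out of 24956 probe sets for 14132 genes with 1 symbol on the array. No probe set was paired with GP1BB, a subunit of the receptor for von Willebrand factor, or with SPARC, a protein of matrix and platelet granules, and these genes were not analysed here. ITGB3 had 8 probe sets, PF4 had 3, ITGA2B and GNG11 had 2 each, and the other 4 genes had 1 each. The animals had been reared under surrogate-peer conditions (n = 4), with peers (n = 4) or by their mothers (n = 5), and the labels name no other treatment or strain. In macaque work, peer rearing usually means growing up with age-mates and no mother, and surrogate-peer rearing usually means an inanimate surrogate together with some contact with age-mates; the labels do not describe the conditions further. The series asks whether gene expression differs with early rearing. Total RNA of each sample was read on 1 Affymetrix rhesus genome array, and each array was taken as 1 animal, so that a p-value measures only the spread between these samples.

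Platelets are fragments shed by megakaryocytes in the bone marrow. They have no nucleus but keep RNA from the parent cell, and they stop bleeding by sticking to damaged vessel walls, to fibrinogen and to each other. They also release chemokines and growth factors from alpha granules. Platelets are not mononuclear cells, but they bind to monocytes and sediment near them, so preparations of blood mononuclear cells commonly carry some of them along. The method by which the cells were isolated is not described beyond their name. On bulk RNA, fewer platelets and less RNA per platelet cannot be told apart.

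PPBP and PF4, at its probe set with the highest mean, gave strong signal: no array read below 12.73 on the log2 scale. The other member probe sets had lower means, and 4 of the 8 of ITGB3 were below the filter on low values (6.04). The range over animals differed between genes and between probe sets of 1 gene. TREML1 spanned a 9.29-fold range over the 13 arrays, ITGA2B a 6.41-fold range and TUBB1 a 5.10-fold range, but PF4 a 1.76-fold and ITGB3 a 1.36-fold range at the probe sets with the highest mean. At its other probe sets PF4 spanned a 4.03-fold and a 48.1-fold range, and ITGB3 up to a 6.94-fold range. Most of the genes were high or low on the same arrays. Surrogate-peer array 3 was the lowest of all arrays at 7 of 8 genes, and maternal array 2 the highest at 5 of 8. None of the 15 member probe sets tested passed in any comparison of rearing groups, and the values of the groups overlapped at all 19. How often groups overlap over all probe sets was not computed, so the overlap is only a description.

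Across the whole series, array medians ran from 6.001 to 6.044 on the log2 scale over the surrogate-peer arrays, 5.995 to 6.036 over the peer arrays and 6.048 to 6.061 over the maternal arrays. The log2 ratio of 3' to 5' signal of the actin and GAPDH controls, a measure of RNA quality, lay within 1.31 to 1.44 in the surrogate-peer group, 1.38 to 1.74 in the peer group and 1.56 to 2.22 in the maternal group. Maternal medians were above all others, and the ratio did not overlap between surrogate-peer and maternal arrays. In comparisons with maternal animals, rearing could therefore not be fully told apart from these measures. Arrays had a mean correlation with the other 12 of between 0.976, for maternal array 5, and 0.989. All 11 monocyte, 10 T cell and 9 B cell markers measured passed the filter on low values (a mean of 6.04), though not all by much: CD14 of monocytes read 10.51 to 11.55 in the surrogate-peer group, 10.54 to 11.55 in the peer group and 10.74 to 12.78 in the maternal group, while BCL11B of T cells read 6.21 to 7.26, 6.29 to 6.78 and 5.64 to 6.23 in the surrogate-peer, peer and maternal groups.

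PF4 and PPBP encode chemokines that platelets store in alpha granules and release when activated. At the PF4 probe set with the highest mean, MmugDNA.1563.1.S1_at, the log2 values were 13.49, 13.26, 12.76 and 13.43 in surrogate-peer animals 1 to 4. They were 13.29, 13.43, 13.40 and 13.29 in peer animals and 13.31, 13.58, 13.34, 13.51 and 12.90 in maternal animals. All values but those of surrogate-peer array 3 and maternal array 5 lay within a narrow band, and the groups overlapped. The surrogate-peer and peer groups together minus the maternal group gave a log2 fold change of -0.03 ± 0.13 (SE), with a 95% interval of -0.33 to 0.26.

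PPBP, the precursor of the neutrophil-attracting peptide NAP-2, had log2 values of 14.02, 14.03, 12.73 and 14.26 in surrogate-peer animals, 13.73, 14.01, 13.84 and 14.09 in peer animals and 13.76, 14.25, 13.91, 14.05 and 13.40 in maternal animals. The group means were 13.76 ± 0.70 in the surrogate-peer group (SD, n = 4), 13.92 ± 0.16 in the peer group (SD, n = 4) and 13.87 ± 0.32 in the maternal group (SD, n = 5). The same 2 arrays that were low for PF4 were low for PPBP, and the other arrays of all groups overlapped. The log2 fold change of the surrogate-peer and peer groups together against the maternal group was -0.03 ± 0.23 (SE), with a 95% interval of -0.53 to 0.46. The RefSeq gene table of macaque assembly T2T-MMU8v2.0 lists PPBP and PF4 as neighbours with 0 genes between them. It also lists PF4V1, a close copy of PF4, with 3 genes between it and PF4. No probe set was paired with PF4V1, and a signal of PF4V1 at the PF4 probe sets could not be told apart from PF4.

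**Figure D1:**
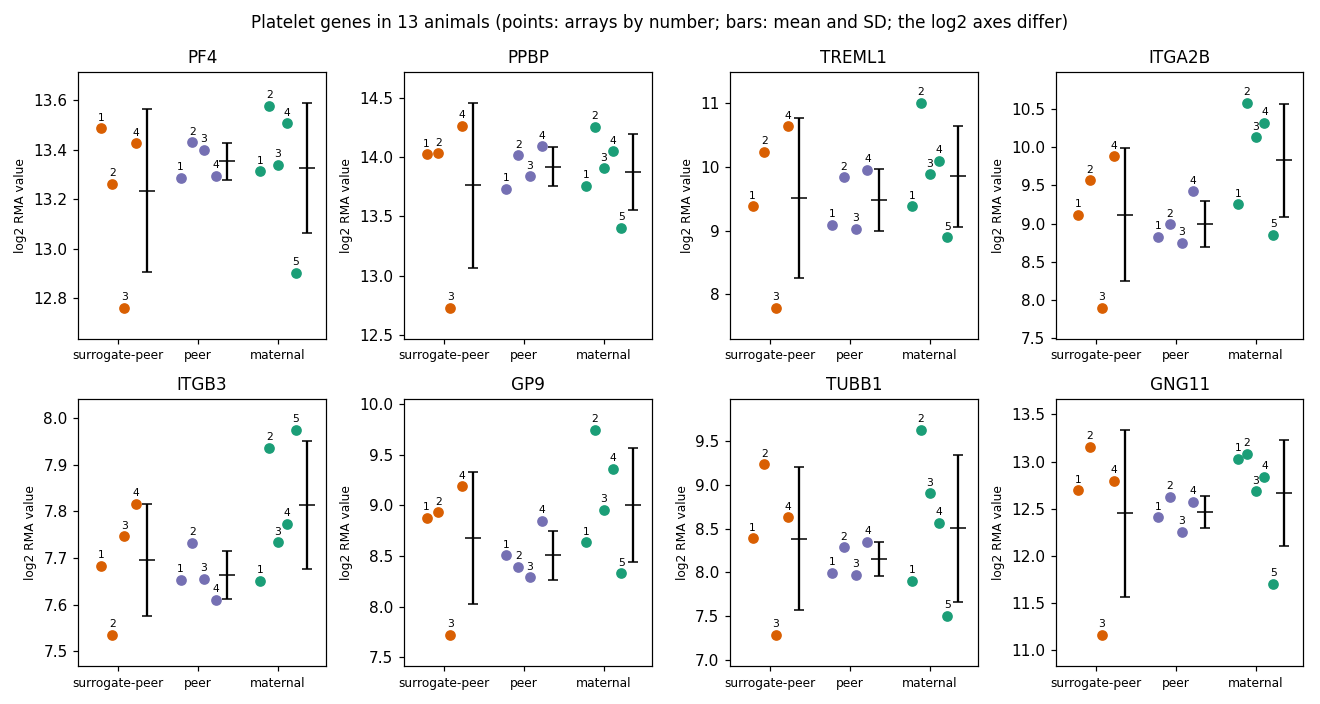
Log2 RMA value (vertical axis, with its own range in each panel) of 8 platelet genes at the probe set with the highest mean, in surrogate-peer (n = 4), peer (n = 4) and maternal (n = 5) animals. Points are arrays with their number, and bars show the mean and SD; surrogate-peer array 3 lies lowest in 7 panels, and in each panel the groups overlap.

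The 3 probe sets of PF4 disagreed on 2 maternal arrays. At MmugDNA.1564.1.S1_at the log2 values were 13.27, 12.83, 11.65 and 13.28 in surrogate-peer animals, 13.27, 13.09, 13.37 and 13.09 in peer animals and 13.35, 13.41, 13.44, 9.21 and 7.86 in maternal animals. Maternal arrays 4 and 5 stood far below the other 11. The value at this probe set minus that at MmugDNA.1563.1.S1_at was -4.30 on maternal array 4 and -5.05 on maternal array 5, and between -1.11 and 0.10 on the other arrays. On maternal array 4 the other PF4 probe sets were among the higher values, at 13.51 and 13.55, and all 8 genes, each at the probe set with the highest mean, were above the median of the other 12 arrays there. What sets the probe sets apart on these arrays was not tested; no probe sequence was used here.

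MmugDNA.1564.1.S1_at gave the only positive log2 fold change among the member probe sets in the comparison of the surrogate-peer and peer groups together with the maternal group. It was 1.53 ± 0.90 (SE), with a 95% interval of -0.41 to 3.47 and a limma adjusted p of 0.269. Without maternal arrays 4 and 5, an alternative chosen after the values were seen, it was -0.42. With the number in the sample titles as a covariate it was 3.02. The third probe set, MmugDNA.1563.1.S1_s_at, followed the first, with 13.66, 13.32, 11.90 and 13.42 in surrogate-peer animals, 13.21, 13.48, 13.39 and 13.29 in peer animals and 13.11, 13.90, 13.17, 13.55 and 12.44 in maternal animals.

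**Figure D2:**
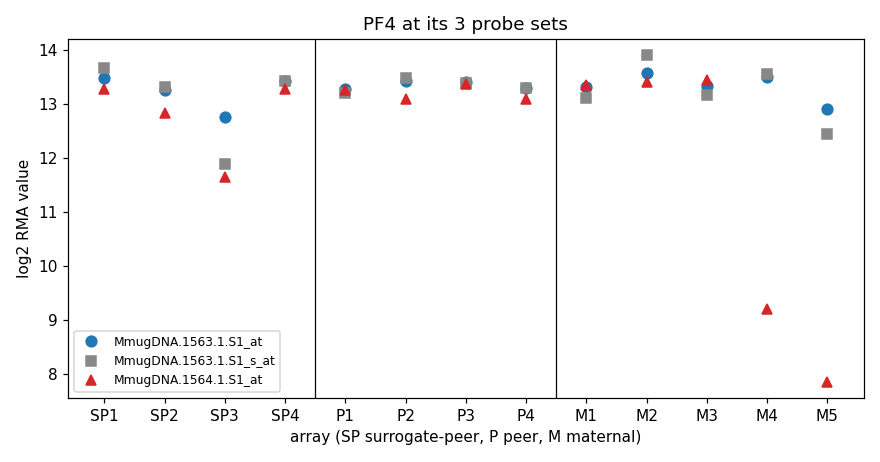
Log2 RMA value of the 3 PF4 probe sets (vertical axis) on each of the 13 arrays (horizontal axis: surrogate-peer, peer, maternal). Each marker is 1 array; MmugDNA.1564.1.S1_at (triangles) drops to 9.21 and 7.86 on maternal arrays 4 and 5, where the other probe sets stay at 12.44 or above.

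ITGA2B and ITGB3 encode the alpha and beta chains of the fibrinogen receptor, the integrin through which platelets aggregate. At the brighter ITGA2B probe set, MmugDNA.22060.1.S1_at, the log2 values were 9.12, 9.56, 7.90 and 9.88 in surrogate-peer animals, 8.83, 8.99, 8.74 and 9.42 in peer animals and 9.25, 10.58, 10.13, 10.32 and 8.85 in maternal animals. Maternal arrays 2, 3 and 4 were higher than every surrogate-peer and peer array, while maternal arrays 1 and 5 lay among them. The means were 9.11 ± 0.87 in the surrogate-peer group (SD, n = 4), 8.996 ± 0.302 in the peer group (SD, n = 4) and 9.82 ± 0.74 in the maternal group (SD, n = 5). For the surrogate-peer and peer groups together against the maternal group, the log2 fold change was -0.77 ± 0.35 (SE), with a 95% interval of -1.53 to -0.01, an unadjusted limma p of 0.0479 and an adjusted p of 0.168. At the other probe set of ITGA2B the same log2 fold change was -0.28 ± 0.16 (SE), with an interval of -0.62 to 0.06 and a limma adjusted p of 0.244. ITGA2B thus had the smallest p of the 15 tested member probe sets, and it did not pass after adjustment.

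The probe sets of ITGB3 fell into differing patterns. The one with the highest mean, MmugDNA.20523.1.S1_at, barely varied, with log2 values of 7.54 to 7.82 in the surrogate-peer group, 7.61 to 7.73 in the peer group and 7.65 to 7.97 in the maternal group. Of all tested probe sets, 84.4% had a larger SD over the 13 arrays. MmugDNA.10923.1.S1_at did vary, with 7.06, 8.88, 6.09 and 8.33 in surrogate-peer animals, 6.96, 7.44, 7.46 and 7.90 in peer animals and 7.35, 8.82, 7.54, 7.45 and 6.56 in maternal animals. It was low on surrogate-peer array 3 and maternal array 5 and high on maternal array 2, as the other platelet genes were, and only 1.55% of tested probe sets had a larger SD.

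Over the 13 arrays, MmugDNA.10923.1.S1_at had r = 0.873 with the mean of the other 7 genes, and MmugDNA.20523.1.S1_s_at had r = 0.742. For MmugDNA.20523.1.S1_at and MmugDNA.15632.1.S1_at these values were 0.04 and 0.02. The 4 remaining probe sets of ITGB3 were below the filter on low values and gave 0.13 to 0.65. These correlations describe 13 arrays and were not tested. Where 1 probe set stands for a gene, it is the one with the highest mean, which for ITGB3 is the nearly invariant MmugDNA.20523.1.S1_at.

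GP9 encodes a subunit of the receptor complex that holds platelets to von Willebrand factor. Its log2 values were 8.88, 8.93, 7.72 and 9.19 in surrogate-peer animals, 8.51, 8.39, 8.29 and 8.85 in peer animals and 8.63, 9.74, 8.96, 9.36 and 8.33 in maternal animals. Maternal arrays 2 and 4 were the highest and surrogate-peer array 3 the lowest, with all groups overlapping. The log2 fold change of the surrogate-peer and peer groups together against the maternal group was -0.41 ± 0.27 (SE), with a 95% interval of -0.99 to 0.17.

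TREML1 encodes a receptor of alpha-granule membranes that reaches the platelet surface on activation. Its log2 values were 9.38, 10.23, 7.79 and 10.63 in surrogate-peer animals, 9.09, 9.84, 9.03 and 9.96 in peer animals and 9.38, 11.01, 9.88, 10.09 and 8.89 in maternal animals. Surrogate-peer animals held both the lowest value and the second highest, and only 1.37% of all tested probe sets had a larger SD over the arrays. The log2 fold change against the maternal group was -0.36 ± 0.46 (SE) for the other groups together, with a 95% interval of -1.34 to 0.63. That interval leaves room for differences of more than 2-fold in the lower direction, since its lower end is a ratio of 0.394.

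TUBB1 encodes the beta-tubulin of the ring that gives platelets their disc shape. It read 8.39, 9.24, 7.28 and 8.63 on the log2 scale in surrogate-peer animals, 7.99, 8.29, 7.97 and 8.35 in peer animals and 7.90, 9.63, 8.90, 8.57 and 7.50 in maternal animals. The extremes were again surrogate-peer array 3 and maternal array 2. GNG11, a gamma subunit of heterotrimeric G proteins, read 12.70, 13.16, 11.16 and 12.80 in surrogate-peer animals, 12.41, 12.63, 12.26 and 12.57 in peer animals and 13.03, 13.08, 12.69, 12.84 and 11.71 in maternal animals. Here maternal array 2 was 1 of several high arrays, and surrogate-peer array 3 and maternal array 5 were apart at the low end. The second probe set of GNG11 followed the first on every array, with a difference between them of -1.47 to -1.01. The log2 fold changes of the surrogate-peer and peer groups together against the maternal group were -0.23 ± 0.36 (SE) for TUBB1 and -0.21 ± 0.31 (SE) for GNG11, with 95% intervals of -1.01 to 0.54 and -0.88 to 0.47.

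Seen by array, surrogate-peer array 3 was below the median of the other 12 at 7 of 8 genes. It was lower by 4.19-fold at TREML1, 2.89-fold at GNG11, 2.71-fold at ITGA2B, 2.44-fold at PPBP, 2.21-fold at GP9, 2.13-fold at TUBB1 and 1.53-fold at PF4. ITGB3, at its nearly invariant probe set, was not low there. Maternal array 5 was below the median of the others at the same 7 genes, by 1.38-fold at PF4 to 1.98-fold at GNG11. Maternal array 2 was above it at all 8 genes, by 1.17-fold at ITGB3 to 2.63-fold at TREML1 and ITGA2B.

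A mean over the 8 genes of the log2 value minus the gene's own mean was -1.05 on surrogate-peer array 3, the lowest, and 0.79 on maternal array 2, the highest. By group this mean was -0.09 ± 0.66 in the surrogate-peer group (SD, n = 4), -0.12 ± 0.18 in the peer group (SD, n = 4) and 0.17 ± 0.48 in the maternal group (SD, n = 5). The group means thus lay closer together than the animals within the surrogate-peer and maternal groups did.

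Marker lists of other blood cells, summed in the same way, moved in part with these arrays. The score of 11 measured monocyte markers spanned -0.56 to 0.31 over the surrogate-peer arrays, -0.47 to 0.10 over the peer arrays and -0.42 to 0.95 over the maternal arrays. It was -0.56, the lowest, on surrogate-peer array 3, and 0.95, the highest, on maternal array 2, but 0.83 on maternal array 5, where the platelet genes were low. Of 9 measured erythroid markers, 6 passed the filter on low values. Their score over all 9 was -0.53 to 0.28 over the surrogate-peer arrays, -0.28 to 0.85 over the peer arrays and -0.40 to 0.62 over the maternal arrays. It was -0.15 on surrogate-peer array 3 and 0.62 on maternal array 2. For 10 T cell markers the score was -0.05 to 0.38 over the surrogate-peer arrays, 0.03 to 0.30 over the peer arrays and -0.53 to 0.00 over the maternal arrays. Peer and maternal arrays did not overlap in this score. It was 0.38 on surrogate-peer array 3, -0.53 on maternal array 2 and -0.50 on maternal array 5.

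For 9 B cell markers the score was -1.15 to -0.18 over the surrogate-peer arrays, -0.29 to 0.54 over the peer arrays and 0.03 to 0.99 over the maternal arrays, so that surrogate-peer and maternal arrays did not overlap. It was -0.18 on surrogate-peer array 3 and 0.99, the highest, on maternal array 2. For 12 markers of natural killer and cytotoxic cells it was -0.78 to 0.50 over the surrogate-peer arrays, -0.66 to 0.39 over the peer arrays and -0.26 to 0.92 over the maternal arrays, with -0.78, the lowest, on surrogate-peer array 3 and 0.22 on maternal array 2. Of 6 neutrophil markers, 4 passed the filter on low values. The score over all 6 was -0.30 to 0.49 over the surrogate-peer arrays, -0.72 to 0.33 over the peer arrays and -0.46 to 0.78 over the maternal arrays. It was 0.78, the highest, on maternal array 5.

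Some of the members are also made by endothelial cells or fibroblasts. Of 10 endothelial markers measured, 4 passed the filter on low values, TIE1, ROBO4, ENG and TEK, and 6 did not, CDH5 and KDR among them. The endothelial score was -0.15 to 0.01 over the surrogate-peer arrays, -0.10 to -0.03 over the peer arrays and 0.04 to 0.17 over the maternal arrays. The maternal arrays did not overlap those of the other groups in this score. It was -0.15, the lowest, on surrogate-peer array 3. Of 8 fibroblast markers, 3 passed, THY1, COL3A1 and DCN, and 5 did not, COL1A1 and COL1A2 among them. The fibroblast score was -0.12 to 0.15 over the surrogate-peer arrays, -0.09 to 0.03 over the peer arrays and -0.02 to 0.11 over the maternal arrays. The part of any of these cells in the level of the platelet genes was not tested.

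**Figure D3:**
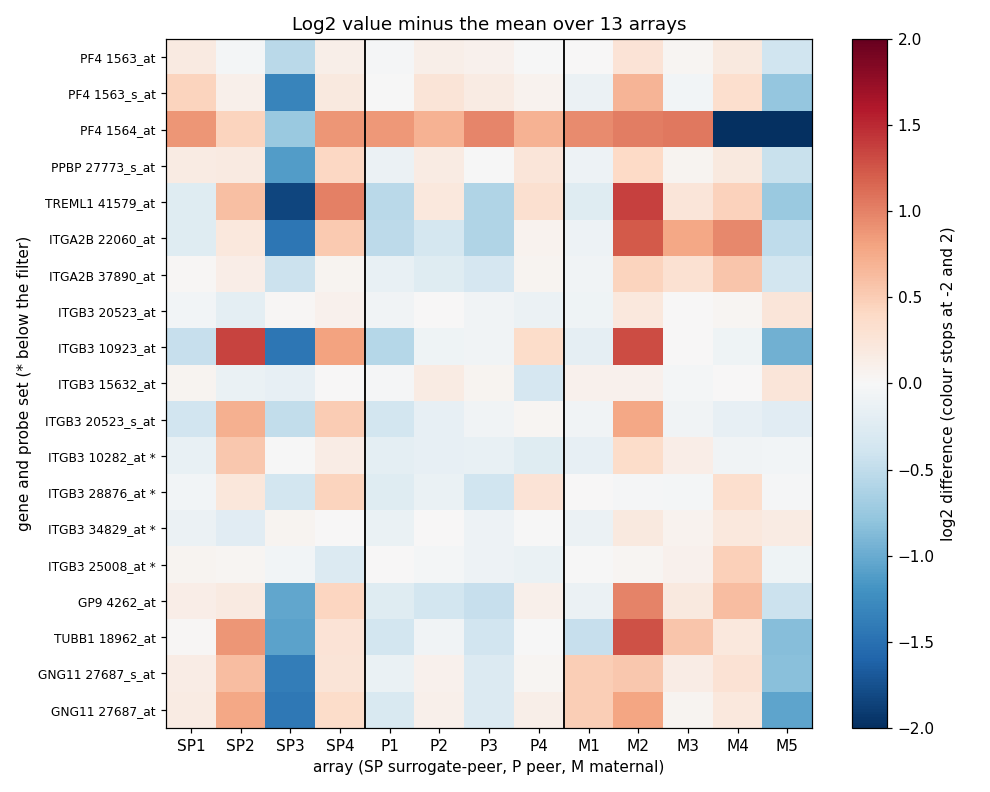
Log2 value minus the mean over the 13 arrays (colour, stopping at -2 and 2) for the 19 member probe sets (rows, with an asterisk where below the filter) on each array (columns: surrogate-peer, peer, maternal). Surrogate-peer array 3 is blue in most rows and maternal array 2 red, while ITGB3 MmugDNA.20523.1.S1_at stays near white.

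The platelet genes were correlated with each other over the animals. Among 28 pairs of the 8 genes, at 1 probe set a gene and over 13 arrays, 21 passed an adjusted permutation p of 0.05 for Pearson's r, and these were all the pairs without ITGB3. Their r was 0.707 to 0.959, with a median of 0.841. By Spearman's rho 17 of the 28 pairs passed. All p-values are two-sided and adjusted over the 28 pairs within each measure.

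The closest pair was ITGA2B and GP9, with r = 0.959 and rho = 0.962 (permutation p = 1e-05 for each, the smallest that 100000 resamples can give). TREML1 and GP9 followed with r = 0.915 and rho = 0.902. PPBP and TREML1 had r = 0.912 and rho = 0.924. PF4 and PPBP had r = 0.907 (adjusted permutation p = 7e-04) but rho = 0.654 (adjusted permutation p = 0.0313). Only 2 tested probe sets on the array had a larger r with PPBP than TREML1 did.

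How many pairs passed depended on few arrays. Without the 2 arrays farthest from the median of the gene named first in each pair, 12 of 28 pairs passed. The 6 pairs of PF4 with genes other than ITGB3 no longer passed. Their r was 0.147 to 0.572 after surrogate-peer array 3 and maternal array 5 were left out. Whether these pairs passed thus depended on those arrays. With only surrogate-peer array 3 left out, their r was 0.514 to 0.813. The change in r was not tested. The pair of PF4 and ITGB3 passed only without both arrays, with r = 0.826 against -0.109 over 13 arrays. The other 4 pairs that no longer passed were PPBP with ITGA2B and GNG11 with PPBP, ITGA2B and GP9. ITGA2B and GP9 still had r = 0.911 over 11 arrays (adjusted permutation p = 0.00476).

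The correlations were also present on deviations from the group means, pooled over all arrays. On these deviations, 21 of 28 pairs passed again, with r of 0.762 to 0.964 for the pairs without ITGB3. No correlation was computed inside a single rearing group, so the pooled r does not show that each group held the relation. The 7 pairs with ITGB3 had r of -0.26 to 0.23 over all arrays. With each gene at its probe set of largest SD, which for ITGB3 is MmugDNA.10923.1.S1_at, the pairs with ITGB3 had r of 0.424 to 0.903 and the pairs with PF4, then at MmugDNA.1564.1.S1_at, had r of 0.084 to 0.493. Signal on these arrays shares 1 RNA sample per animal, so the amount and composition of that RNA are common to all genes.

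**Figure D4:**
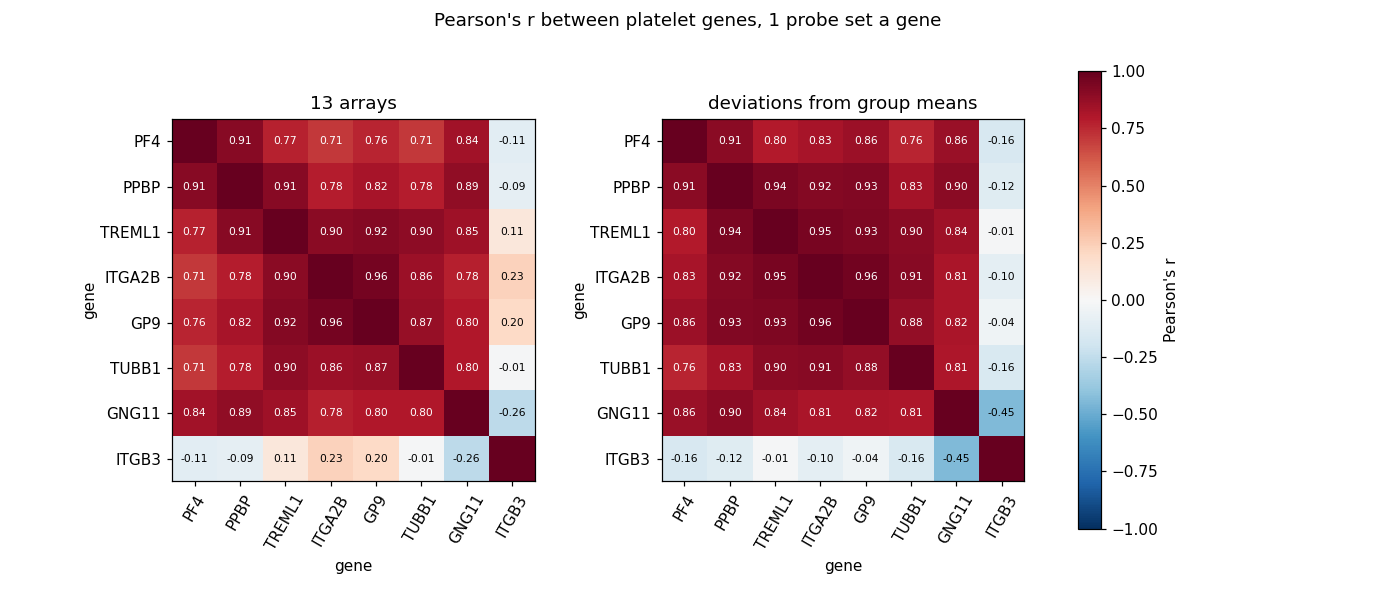
Pearson's r (colour and number) between 8 platelet genes over 13 arrays (left) and over deviations from the means of the rearing groups (right). Pairs without ITGB3 have r of 0.707 or more on the left and 0.762 or more on the right; the row of ITGB3 runs from -0.26 to 0.23 on the left and from -0.45 to -0.01 on the right.

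The rearing groups were then compared probe set by probe set in 1 limma fit over 26352 tested probe sets, of which 15 were members. For the surrogate-peer and peer groups together against the maternal group, 0 of the 15 members passed an adjusted p of 0.05, against 8% (2107) of all tested probe sets. At an unadjusted p under 0.05 there was 1 of the 15, ITGA2B, against 29.0% of all tested probe sets. The log2 fold change was negative at 14 of the 15, with a median of -0.14 against 0.01 for all tested probe sets. Of all 26352 tested probe sets, 12911 were negative. The 15 probe sets stand for 8 genes that are correlated over animals, so they are not independent.

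For surrogate-peer against maternal animals 0 of 15 members passed, against 0% of all tested probe sets, and 0 had an unadjusted p under 0.05, against 20.3% of all tested probe sets. The log2 fold change was negative at 12 and positive at 3, with a median of -0.13. Over all tested probe sets, 12603 of 26352 were negative, with a median of 0.01. ITGA2B was -0.71 ± 0.41 (SE) with a 95% interval of -1.61 to 0.19, TREML1 -0.34 ± 0.54 (SE) with -1.50 to 0.82, and PPBP -0.11 ± 0.27 (SE) with -0.69 to 0.47. For peer against maternal animals 0 of 15 passed, against 0.353% of all tested probe sets, and again 0 had an unadjusted p under 0.05, against 24.9%. Here 11 were negative and 4 positive, with a median of -0.19. Over all tested probe sets, 13012 of 26352 were negative, with a median of 0.004. ITGA2B was -0.83 ± 0.41 (SE) with a 95% interval of -1.73 to 0.07, GP9 -0.50 ± 0.32 (SE) with -1.18 to 0.19 and PPBP 0.04 ± 0.27 (SE) with -0.54 to 0.63. These comparisons share the 5 maternal animals.

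For surrogate-peer against peer animals 0 of 15 members passed, against 0% of all tested probe sets. The members had 9 positive and 6 negative log2 fold changes, with a median of 0.03. All tested probe sets had 13232 positive and 13114 negative, with a median of 0.001. The smallest unadjusted limma p of the 15 was 0.441, at MmugDNA.20523.1.S1_s_at of ITGB3. The 95% interval of PPBP was -0.77 to 0.46, that of ITGA2B -0.83 to 1.06 and that of TREML1 -1.19 to 1.26. With 4 animals a group, these intervals leave room for differences in either direction.

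The 4 probe sets of ITGB3 below the filter were fitted together with all probe sets, without a filter, and none passed in any comparison. The smallest limma p for the surrogate-peer and peer groups together against the maternal group was at MmugDNA.34829.1.S1_at, with a log2 fold change of -0.17 ± 0.07 (SE), an unadjusted p of 0.0346 and an adjusted p of 0.189. For surrogate-peer against peer animals it was at MmugDNA.10282.1.S1_at, with 0.32 ± 0.14 (SE), a 95% interval of 0.02 to 0.63, an unadjusted p of 0.0406 and an adjusted p of 1.

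**Figure D5:**
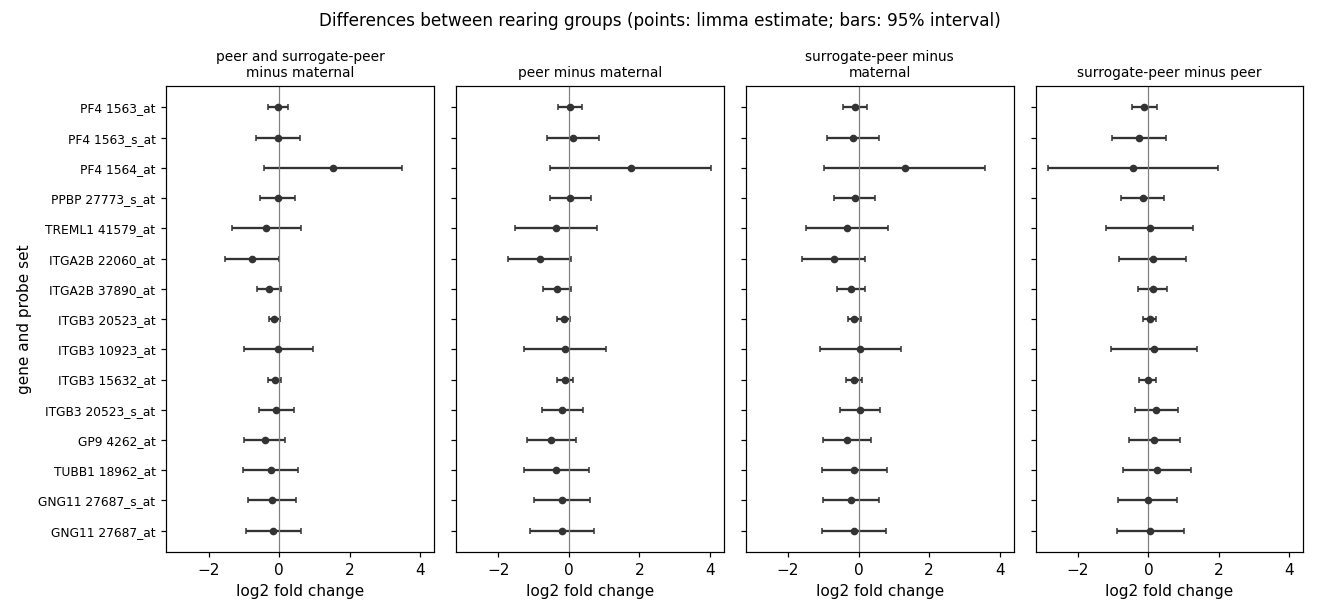
Log2 fold change (horizontal axis; points are limma estimates, bars 95% intervals) of the 15 tested member probe sets (rows) in 4 comparisons of rearing groups (panels). Every interval but that of ITGA2B MmugDNA.22060.1.S1_at in the leftmost panel, -1.53 to -0.01, includes 0.

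A wider list of 68 symbols of platelet receptors, granule proteins, signalling proteins and megakaryocyte factors, some of them older names of the same gene, had 54 measured and 43 tested genes. None passed in any comparison. For the surrogate-peer and peer groups together against the maternal group, 36 of the 43 log2 fold changes were negative. Over all tested probe sets, 12911 of 26352 were negative. The median of the 43 was -0.24, against 0.01 for all tested probe sets. Many of these genes were correlated over the animals, so their signs are not independent. At an unadjusted p under 0.05 there were 3 of the 43, against 29.0% of all tested probe sets. At that level there were 2 for surrogate-peer against maternal animals, against 20.3% of all tested probe sets. There were 3 for peer against maternal animals, against 24.9%, and 0 for surrogate-peer against peer animals, against 1.83%. The 5 with the smallest p were PDGFB, CCL5, P2RX1, NFE2 and CD63. CCL5, a chemokine that T cells and natural killer cells also make, had a log2 fold change of -0.93 ± 0.28 (SE) and a limma adjusted p of 0.0578, with means of 9.21 ± 0.88 in the surrogate-peer group (SD, n = 4), 9.44 ± 0.38 in the peer group (SD, n = 4) and 10.26 ± 0.22 in the maternal group (SD, n = 5). PDGFB, a growth factor chain of alpha granules, had a positive log2 fold change of 0.33 ± 0.10 (SE) with a limma adjusted p of 0.0574.

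P2RX1, an ATP-gated channel, had -0.27 ± 0.10 (SE), with a limma adjusted p of 0.108. NFE2, a transcription factor of megakaryocytes and red cell precursors, had -0.75 ± 0.35 (SE), and CD63, a membrane protein of granules and lysosomes, had -0.32 ± 0.16 (SE). Over the arrays, PDGFB did not follow the members (r = -0.32 with their mean) and P2RX1 did (r = 0.818). Of the 43 genes, 23, or 53.5%, had r of at least 0.7 with the mean of the members, against 1.51% of all tested probe sets.

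The genes outside the members whose values over the 13 arrays were most like the members' mean were NRGN (r = 0.970), GP1BA (r = 0.969), PCDHA11 (r = 0.958), THBS1 (r = 0.954), ITGB5 (r = 0.952), LTBP1 (r = 0.947), MARCHF2 (r = 0.931), HGD (r = 0.930), ADAMTS14 (r = 0.923) and ANKRD22 (r = 0.923). They were chosen for their r, at the probe set of each gene with the highest r, and r is given as a description. At the probe set with the highest mean, r was lower for THBS1 (0.668) and LTBP1 (0.853). ADAMTS14 barely varied, from 6.05 to 6.43 over the 13 arrays (SD 0.116), close to the filter on low values (6.04). GP1BA encodes the chain of the von Willebrand factor receptor that binds its ligand, and THBS1 encodes thrombospondin, an adhesive protein of alpha granules. NRGN is a calmodulin-binding protein, LTBP1 binds latent TGF-beta, and HGD is an enzyme of tyrosine breakdown; with GP1BA and THBS1 they stood in the wider list. PCDHA11 is a protocadherin, ITGB5 an integrin beta chain, MARCHF2 a ubiquitin ligase and ADAMTS14 a metalloproteinase. All 10 were lowest on surrogate-peer array 3 and highest on maternal array 2, the extremes of the mean by which they were chosen.

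NRGN had log2 values of 10.40, 11.04, 8.80 and 11.09 in surrogate-peer animals, 10.27, 10.25, 10.05 and 10.65 in peer animals and 10.58, 11.31, 11.10, 11.001 and 9.88 in maternal animals. GP1BA had 7.19, 7.51, 5.72 and 7.70 in surrogate-peer animals, 6.91, 6.90, 6.52 and 7.22 in peer animals and 6.96, 8.69, 7.23, 7.75 and 6.52 in maternal animals. Both genes overlapped between all rearing groups, and in both surrogate-peer array 3 lay apart at the low end.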

How the data were processed

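Expression was read on 13 Affymetrix rhesus arrays of total RNA from blood mononuclear cells. The deposited values are on a log2 scale, 1 per probe set, and RMA (robust multi-array averaging) is the method named in the submitters' processing notes. Its version, its settings and joint normalization of the arrays are not stated in the sources read here. No genome build was used.

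Gene symbols came from the platform annotation, which can be old. Of 52865 probe sets, 158 controls were left out, and 26352 with a mean over the 13 arrays above the median of those means (6.04) were tested. Differences were tested with limma 3.58.1 (lmFit and eBayes, all arrays in 1 fit) in R 4.3.3, two-sided, with Benjamini-Hochberg adjustment over all tested probe sets and a threshold of 0.05. Correlations used 100000 permutations (scipy 1.17.1, Python 3.11.15). Of 45 pairs intended, 28 could be computed, because 2 symbols had no probe set. Both procedures were tested on simulated data. Precision is limited by how few arrays there are.

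A gene was represented by its probe set with the highest mean. Named were all members, the wider-list genes that passed or otherwise the 5 with the smallest p, and the 10 genes most like the members' mean (symbols starting with LOC left out). Members and lists were chosen with earlier results of these data known. Alternatives changed the filter, the normalization, the fit, the covariates or the arrays included.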

Additional observations from a re-analysis of the deposited data

Results flagged for a closer look

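In 60 sets of values, 1 for each member probe set and rearing group, and for the mean of the members, 4 held 1 array apart from the rest of its group by Dixon's criterion, which chance meets in about 1 of 20 groups. PPBP was 12.73 on surrogate-peer array 3, against 14.02 to 14.26 on the other surrogate-peer arrays. GNG11 was 11.71 on maternal array 5, against 12.69 to 13.08 on the other maternal arrays. ITGB3 at MmugDNA.20523.1.S1_s_at was 7.01 on maternal array 2, against 6.01 to 6.16 on the other maternal arrays. ITGB3 at MmugDNA.28876.1.S1_at, a probe set below the filter on low values, was 5.79 on maternal array 4, against 5.41 to 5.46 on the other maternal arrays. PF4 at MmugDNA.1564.1.S1_at did not meet the criterion, since 2 maternal arrays were low together.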

How the results depend on the processing

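No member probe set passed in any of the 4 comparisons under any alternative run; of 1413 log2 fold changes of members recomputed, 119 changed sign, 17 moved by more than the spread between replicates, 11 of these with the title number as a covariate, and the smallest limma adjusted p was 0.0747. The counts over all probe sets moved far more. For the surrogate-peer and peer groups together against the maternal group, 2107 probe sets passed; the count was 1331 after quantile normalization, 37 without maternal arrays 2 and 5, 1 without maternal arrays 4 and 5 (chosen after the values were seen), and 29 to 4830 with each array left out in turn, lowest without maternal array 4 and highest without maternal array 1, with each of the 13 moving it by over 1.5 times. For peer against maternal animals 93 passed; the count was 50 without a filter on low values, 1 with a stricter one, 1543 with array weights, 5 after median centring, 15 after quantile normalization, 0 with only the arrays compared, 1819 with the title number and 1445 with the 3' to 5' ratio as a covariate, 59 with a trend and robust fit, 3 without maternal arrays 2 and 5, 1 without maternal arrays 4 and 5, and 0 to 3488 with each array left out, again with each moving it by over 1.5 times and highest without maternal array 1. For surrogate-peer against maternal animals 0 passed; the count was 1 without a filter, 33 after median centring, 25 after quantile normalization, 7 with the title number, 4 with the 3' to 5' ratio, 1 without maternal arrays 2 and 5, and 0 to 2097 with each array left out, highest without maternal array 1. For surrogate-peer against peer animals 0 passed in every run. The causes were not tested, and the title number used as a covariate differed between the rearing groups. The share of all probe sets called, against which the members are read, therefore depends on single arrays. Of 28 correlations between platelet genes, 21 passed; 12 did without the 2 arrays farthest from the median, and 17 to 21 with each array left out, fewest without surrogate-peer array 3. No paired analysis was possible because the labels give the groups no shared replicate numbers. Signal over background was not given in the values used, so a low probe set such as those of ITGB3 below the filter limits what can be read from it.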
